A study of Mus musculus with 12 samples.

Results

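The genes described here are 7 of the 35275 genes counted in the RNA-seq libraries of this study: the MHC class II chains H2-Aa, H2-Ab1 and H2-Eb1, the invariant chain Cd74, the peptide-loading chains H2-DMa and H2-DMb1, and the class II transactivator Ciita. They were looked up by symbol through their Ensembl identifiers, all 7 were found, and all 7 passed the filter on low counts. The genes were selected with the measured values of these same libraries known, from their levels in the groups compared below, so their levels and fold changes are given as a description and carry no test. The cells were wildtype mouse bone-marrow-derived macrophages that had been grown for 6 days with IL-4, IL-10 and M-CSF, a cytokine mix that favors alternative (M2) activation. All groups received these cytokines, and they differed in what was added with them: DMSO, the solvent control, in 4 libraries, olaparib, a PARP inhibitor, in 4 libraries, and MNA (methyl-nicotinamide, a derivative of the NAD precursor nicotinamide) in 4 libraries. The labels number the libraries 1 to 4 in each group and give neither the strain and age of the mice, nor the doses, nor whether libraries with the same number came from the same mouse. If the libraries of a group are not separate animals, the spreads and p-values below measure only the spread between these samples.

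MHC class II molecules are pairs of an alpha and a beta chain that carry peptides from endosomes to the cell surface and show them to CD4+ T cells. The invariant chain fills the binding groove until the DM heterodimer exchanges its remnant for a peptide, and almost the whole set is switched on by 1 coactivator, CIITA, which does not bind DNA itself but docks on RFX, CREB and NF-Y at the X and Y boxes of class II promoters. In macrophages the set is low at rest and is best known as a target of interferon gamma, and IL-4 and IL-10 are known to raise and lower it, respectively.

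The promoters are shown first because the shared X and Y boxes are the feature for which this family is known. In GRCm38 (GENCODE M21) 5 of the 7 genes lie together in the class II region of chromosome 17, in the order H2-DMa (chr17:34119541-34139101, plus strand), H2-DMb1 (chr17:34153072-34160230, plus), H2-Ab1 (chr17:34257689-34269419, plus), H2-Aa (chr17:34282744-34287823, minus) and H2-Eb1 (chr17:34305867-34316674, plus), whereas Ciita is at chr16:10480059-10528418 (plus) and Cd74 on another chromosome. RefSeq promoter windows of 300 bases (250 before to 50 after the transcription start, GRCm38.p6) were found for 4 of the 7 genes, H2-Aa, H2-Eb1, H2-DMb1 and H2-DMa, the last with 2 windows. The X box was searched as AGNNACNGA and the Y box as ATTGG, on both strands for each motif alone. A pair was counted only with both motifs on the strand of the gene and no overlap between them. The X motif had to stand before the Y motif in the direction of the gene with 10 to 40 bases between them. H2-Eb1 and H2-DMb1 held such a pair, with the X motif starting 92 and 95 bases and the Y motif 59 and 61 bases before the start. Of all 32851 promoter windows, 0.219% held such a pair, 17.7% held the X motif on either strand and 37.4% held the Y motif on either strand.
H2-Eb1, chr17:34305750-34305837, plus strand, X and Y motifs in capitals: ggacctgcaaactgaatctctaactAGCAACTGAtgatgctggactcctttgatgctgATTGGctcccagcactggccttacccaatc
H2-DMb1, chr17:34153086-34153115, plus strand, X motif in capitals: aggtttacctAGTAACTGAtgatgctaggc
H2-DMb1, chr17:34153118-34153147, plus strand, Y motif in capitals: attcactcagtgATTGGtctgacctgccta
H2-Aa, chr17:34287842-34287929, minus strand, GCAAC and the Y motif in capitals: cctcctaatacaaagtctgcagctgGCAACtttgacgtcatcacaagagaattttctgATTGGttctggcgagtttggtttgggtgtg
The H2-Eb1 stretch ended 30 bases before the annotated gene and also lay within the antisense gene Gm20513, the H2-Aa stretch ended 19 bases before the gene and overlapped no other gene, and the H2-DMb1 stretches lay inside the gene as GENCODE draws it, at its 5′ end. H2-Aa had the Y motif 48 bases before its start and no match to AGNNACNGA. With the letters GNAAC in place of the X motif, a choice made after these sequences were seen, H2-Aa held a pair too, with 28 bases between the motifs, but so did 2.41% of all windows. Neither window of H2-DMa held a pair under either choice.

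The libraries held 21146291 to 31446849 counted reads, with overlapping ranges in the 3 groups. Levels are given as CPM (counts per 1000000 counts of the library, after TMM scaling of the totals), and as RPKM (CPM per kilobase of exon) wherever genes are compared with each other. Exon length was the union of all annotated exons of a gene, from 1.679 kb for Cd74 to 9.535 kb for Ciita. Orders between genes and the size of ratios depend on that choice. By CPM, H2-Aa (23.4) and H2-DMa (17.3) stood above H2-DMb1 (12.7) in DMSO, and Ciita (6.79) above H2-Eb1 (2.56). MNA replicate 2 stood apart from the other 3 MNA libraries. For 67.4% of the 12849 genes tested its level lay within the range of the DMSO libraries, and removing it lowered the dispersion shared by all genes from 0.0333 to 0.0123. The share of 67.4% is not given for any other library, so it has no baseline here. MNA replicate 2 is shown separately throughout, and counts of calls that involve MNA are given with all 12 libraries and with the 11 that remain without it. The 12 macrophage markers, among them Csf1r, Adgre1 and Cd68, were abundant in all libraries but differed between the groups: they summed to 4357 to 5491 CPM in DMSO, 9080 to 10991 CPM with olaparib, 6836 to 8392 CPM in MNA replicates 1, 3 and 4 and 4047 CPM in MNA replicate 2.

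In DMSO the 7 genes spanned 3 orders of magnitude per length. Cd74 was the highest at 871 ± 204 RPKM (SD, n = 4), followed by H2-Ab1 at 34.2 ± 9.3 RPKM. Then came H2-DMb1 at 7.58 ± 0.82, H2-Aa at 6.17 ± 1.53 and H2-DMa at 5.00 ± 0.78 RPKM, whose libraries overlapped from neighbor to neighbor. H2-Eb1 at 1.32 ± 0.61 RPKM and Ciita at 0.712 ± 0.162 RPKM were the lowest, and their libraries overlapped each other but not those of the 5 genes above. With olaparib the order was the same, from Cd74 at 1335 ± 245 RPKM to Ciita at 1.37 ± 0.35 RPKM, and there the libraries of H2-Eb1 (2.74 ± 0.78 RPKM) and Ciita no longer overlapped. In MNA replicates 1, 3 and 4 Cd74 was at 4839 ± 497 and H2-Ab1 at 167 ± 49 RPKM (SD, n = 3), H2-DMb1 stood below H2-Aa and H2-DMa, and Ciita at 6.56 ± 2.31 RPKM stood level with H2-Eb1 at 5.04 ± 1.03 RPKM, with overlapping libraries.

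**Figure D1:**
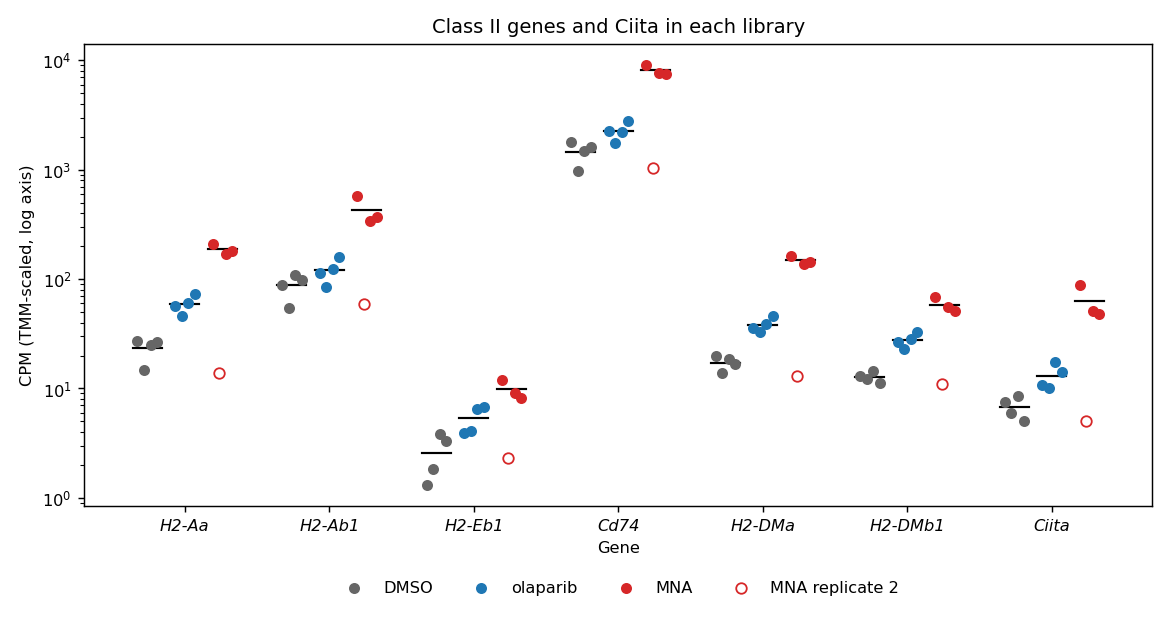
Level of each gene in each of the 12 libraries, in TMM-scaled CPM on a log axis, with DMSO in gray, olaparib in blue and MNA in red. Bars are means of the filled points, and the open circle is MNA replicate 2. MNA replicates 1, 3 and 4 lie above all DMSO and olaparib libraries for all 7 genes, while the open circle lies near the DMSO points (Ciita, 5.05 CPM against 5.08 to 8.51).

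H2-Aa, the alpha chain of the I-A molecule, had the largest log2 fold change of the 7 with olaparib, within the standard error of H2-DMa (1.16, SE 0.52). Its level in DMSO replicates 1 to 4 was 27.4, 14.9, 24.8 and 26.6 CPM, in olaparib 56.8, 46.3, 60.1 and 73.6 CPM, and in MNA 209, 14.0, 171 and 181 CPM. All olaparib libraries lay above all DMSO libraries, MNA replicates 1, 3 and 4 lay above both, and MNA replicate 2 lay just under the lowest DMSO library. Against DMSO, H2-Aa was 2.53-fold higher with olaparib (log2 fold change 1.34, SE 0.56, 12 libraries) and 7.99-fold higher with MNA without replicate 2 (log2 fold change 2.997, SE 0.181, 11 libraries). Here and for the genes below, the standard errors of olaparib and of MNA come from different fits and are not to be compared. In the 11 libraries the olaparib value of H2-Aa had an SE of 0.17, and the SE was smaller than in the 12 for all 7 genes.

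H2-Ab1, the beta chain that pairs with H2-Aa, showed the smallest difference with olaparib. Its DMSO libraries held 87.6, 54.6, 110.2 and 98.5 CPM and its olaparib libraries 114.5, 85.0, 123.0 and 159.1 CPM. These groups overlapped, since olaparib replicate 2 was lower than 3 of the 4 DMSO libraries. The MNA libraries held 572, 59.4, 343 and 372 CPM, so that replicate 1 was the highest and replicate 2 fell within the DMSO range. The log2 fold change over DMSO was 0.46 (SE 0.48, 12 libraries) with olaparib and 2.29 (SE 0.24, 11 libraries) with MNA. The next smallest with olaparib, Cd74 at 0.62 (SE 0.46, 12 libraries), lay within the standard error.

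H2-Eb1, the beta chain of the I-E molecule, was counted from few reads, 28 to 114 in DMSO libraries. The levels were 1.31, 1.82, 3.82 and 3.30 CPM in DMSO, 3.88, 4.12, 6.52 and 6.75 CPM with olaparib and 12.04, 2.33, 9.10 and 8.24 CPM with MNA. The olaparib libraries lay above the DMSO libraries, but by only a small margin between olaparib replicate 1 and DMSO replicate 3. Its log2 fold change over DMSO was 1.04 (SE 0.45, 12 libraries) with olaparib and 1.90 (SE 0.30, 11 libraries) with MNA. The gene of its alpha-chain partner is a pseudogene in the annotation, H2-Ea-ps, which was at 0 in all DMSO and MNA libraries and had 1 read at most in an olaparib library.

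Cd74, the invariant chain that chaperones new class II dimers and also serves as a receptor for the cytokine MIF, was the most abundant of the 7 and lies at chr18:60803848-60812652 on the plus strand. In DMSO it was at 1776, 983, 1474 and 1619 CPM, with olaparib at 2242, 1763, 2193 and 2766 CPM and with MNA at 9085, 1041, 7712 and 7578 CPM. The lowest olaparib library, replicate 2, was just under the highest DMSO library, replicate 1, so these groups overlapped at their edges. MNA replicates 1, 3 and 4 stood far above, and replicate 2 was within the DMSO range. Cd74 was 1.53-fold higher with olaparib (log2 fold change 0.62, SE 0.46, 12 libraries) and 5.55-fold higher with MNA without replicate 2 (log2 fold change 2.47, SE 0.18, 11 libraries).

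H2-DMa, the alpha chain of the peptide exchanger, was at 19.9, 13.7, 18.7 and 16.8 CPM in DMSO and at 35.9, 32.7, 39.0 and 46.0 CPM with olaparib. With MNA it was at 163.6, 13.03, 138.8 and 144.2 CPM. The 3 high MNA libraries, the olaparib libraries and the DMSO libraries formed 3 ranges with gaps between them, and MNA replicate 2 was just under the lowest DMSO library. H2-DMa was 2.23-fold higher with olaparib (log2 fold change 1.16, SE 0.52, 12 libraries) and 8.64-fold higher with MNA (log2 fold change 3.11, SE 0.13, 11 libraries). Of its exon sequence, cut into words of 31 bases, 9.23% is shared with Brd2 on the opposite strand. The library kit keeps the strand, but the strand setting of the counting is not given in the sources used here. Brd2 was at 363 ± 11 CPM (SD, n = 4) in DMSO, 287 ± 20 CPM (n = 4) with olaparib and 669 ± 56 CPM (n = 3) with MNA, so the mean of Brd2 was below DMSO with olaparib and, like that of H2-DMa, above DMSO with MNA. Its part in the H2-DMa counts was not tested.

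H2-DMb1, the beta chain of the same exchanger, was at 13.02, 12.14, 14.5 and 11.3 CPM in DMSO, at 26.7, 23.1, 28.5 and 32.7 CPM with olaparib and at 68.0, 11.1, 55.3 and 51.0 CPM with MNA. The DMSO libraries were close together, and olaparib and MNA replicates 1, 3 and 4 again formed separate ranges above them. Its log2 fold change over DMSO was 1.12 (SE 0.39, 12 libraries) with olaparib and 2.19 (SE 0.13, 11 libraries) with MNA. Of its words of 31 bases, 31.4% also occur in the neighboring gene H2-DMb2, a second DM beta chain, so the share of reads given to each gene is uncertain. H2-DMb2 itself was at 7.73 ± 0.33 CPM in DMSO, 16.7 ± 3.1 CPM with olaparib (SD, n = 4 each) and 40.5 ± 8.3 CPM with MNA (n = 3), with a log2 fold change of 1.11 (SE 0.45, 12 libraries) and 2.39 (SE 0.15, 11 libraries).

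Ciita, the transactivator, was the lowest of the 7 per length in DMSO. With MNA it had the largest log2 fold change of the 7, by less than its standard error. It was at 7.59, 5.98, 8.51 and 5.08 CPM in DMSO, at 10.8, 10.1, 17.3 and 14.0 CPM with olaparib and at 88.0, 5.05, 51.4 and 48.3 CPM with MNA. The lowest olaparib library was above the highest DMSO library, MNA replicate 1 was far above MNA replicates 3 and 4, and MNA replicate 2 was just under the DMSO range. Ciita was 1.93-fold higher with olaparib (log2 fold change 0.95, SE 0.57, 12 libraries) and 9.24-fold higher with MNA without replicate 2 (log2 fold change 3.21, SE 0.24, 11 libraries). It shares 2.28% of its words of 31 bases with Dexi on the opposite strand, which was at 7.34 ± 0.85 CPM in DMSO, 10.1 ± 0.995 CPM with olaparib and 15.9 ± 0.7 CPM in MNA without replicate 2, and whose part in the Ciita counts was not tested. Over the fit of the 11 libraries and its alternatives, the log2 fold change with MNA ran from 2.88 to 3.37 for Ciita. For H2-DMa it ran from 3.02 to 3.18, so Ciita was not the largest in all of them.

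**Figure D2:**
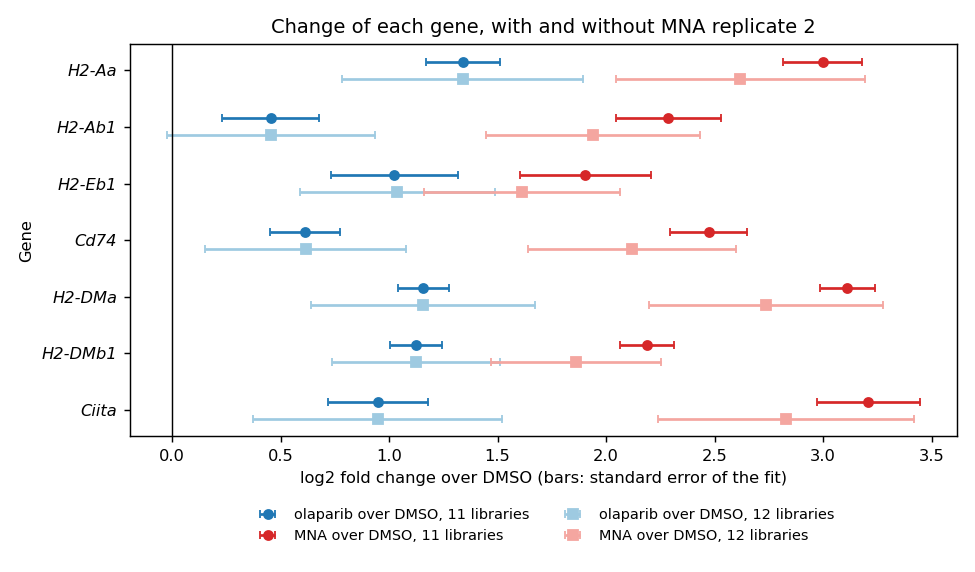
Log2 fold change over DMSO of each gene (x axis) with its standard error from the edgeR fit, for olaparib in blue and MNA in red. Dark circles are from the 11 libraries without MNA replicate 2 and pale squares from all 12. The olaparib values are nearly the same in both fits with shorter bars in the smaller one, while the MNA values move to the right, for Ciita from 2.83 to 3.21.

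The comparison of olaparib with DMSO asks what PARP inhibition does to these genes during differentiation. All 7 genes were higher on average, with log2 fold changes from 0.46 for H2-Ab1 to 1.34 for H2-Aa and a median of 1.04, beside a median of 0.0038 over the 12849 genes tested. For 5 of the 7, all but Cd74 and H2-Ab1, every olaparib library was above every DMSO library, which was so for 20.7% of all genes tested. Within each replicate number the olaparib library was above the DMSO library in 28 of 28 gene and number pairs, by 1.12-fold to 3.11-fold. The 7 genes were measured in the same 8 libraries, so these pairs are not separate observations. For the 5 genes with separate groups no other outcome was possible, and no share over all genes is given. In the edgeR quasi-likelihood fit of all 12 libraries, which shares 1 estimate of the spread over the 3 groups, 1 of the 7 (H2-DMb1) was called higher at a Benjamini-Hochberg adjusted p under 0.05, where 14.3% of all genes were called higher and 12.8% lower. That single call was lost when any of the 8 DMSO and olaparib libraries or MNA replicate 3 or 4 was left out, and without MNA replicate 2, a library outside this comparison, 6 of the 7 (all but H2-Ab1) were called higher beside 22.5% of all genes. Because the genes were selected on these libraries, nothing is read from the counts of calls or of pairs.

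The comparison of MNA with DMSO asks whether the NAD derivative acts on the same genes. MNA replicate 2 lay in the DMSO range for Cd74, H2-Ab1 and H2-Eb1 and below its lowest library for H2-Aa, H2-DMa, H2-DMb1 and Ciita, so for none of the 7 were all 4 MNA libraries above all DMSO libraries, against 6.24% of all genes. With all 12 libraries the log2 fold changes ran from 1.61 for H2-Eb1 to 2.83 for Ciita, and 7 of 7 were called higher beside 16.3% of all genes. Leaving out MNA replicate 1, 3 or 4 reduced this to 5, 4 and 4 calls, leaving out DMSO replicate 1 or 2 to 6 and 5, and an edgeR fit of the MNA and DMSO libraries alone called 0 members and 0 genes in all, although 4741 genes had an unadjusted p under 0.05 in it, while DESeq2 called 7 members on the 12 libraries. With MNA replicate 2 set apart the log2 fold changes ran from 1.90 for H2-Eb1 to 3.21 for Ciita with a median of 2.47, beside a median of -0.0015 over 13023 genes. All 7 were then called higher beside 27.2% of all genes, and for all 7 the 3 MNA libraries were above the 4 DMSO libraries, which was so for 27.2% of all genes too. The 7 calls were made under every alternative run on the 11 libraries.

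Between the treatments, the 7 genes were lower with olaparib than with MNA replicates 1, 3 and 4. The log2 difference, olaparib minus MNA, ran from -2.26 (SE 0.23) for Ciita to -0.88 (SE 0.29) for H2-Eb1 in the 11 libraries, with a median of -1.83 beside 0.0025 over all genes tested. All 7 were called lower, beside 20.7% of all genes called lower and 21.5% called higher, and for all 7 the libraries were separate, as for 22.8% of all genes. The H2-Eb1 call was lost without olaparib replicate 1 or 2 or MNA replicate 1. With all 12 libraries 4 of 7 were called lower beside 10.9% of all genes. These calls became 2 with the replicate block, 0 when any 1 of the olaparib libraries or MNA replicate 1, 3 or 4 was left out, and 1 or 2 when a DMSO library was left out. With all 12 libraries for none of the 7 were the libraries of the groups separate, against 9.69% of all genes. The olaparib and MNA comparisons with DMSO share the same DMSO libraries, so their values stand side by side here and are not used to measure agreement.

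Ratios between genes whose products work together differed between groups for some pairs and overlapped for others. Ratios were taken between RPKM values within a library, so the scaling of the library cancels. H2-Aa to H2-Ab1, the alpha and beta chains of I-A, was 0.212, 0.184, 0.152 and 0.183 in DMSO and 0.335, 0.368, 0.330 and 0.313 with olaparib. All olaparib ratios were above all DMSO ratios. In MNA the ratio was 0.247, 0.159, 0.338 and 0.329, with replicate 2 in the DMSO range and replicate 1 between DMSO and olaparib. H2-DMa to H2-DMb1, the alpha and beta chains of DM, behaved otherwise: it was 0.744, 0.551, 0.626 and 0.724 in DMSO and 0.656, 0.689, 0.666 and 0.685 with olaparib, within the DMSO range, but 1.17, 1.22 and 1.38 in MNA replicates 1, 3 and 4 and 0.574 in MNA replicate 2. The DM beta gene shares sequence with H2-DMb2 and the DM alpha gene with Brd2, as given above, and their part in this ratio was not tested.

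H2-Eb1 to H2-Ab1, the beta chains of I-E and I-A, averaged 0.0385 ± 0.0125 in DMSO, 0.0587 ± 0.0109 with olaparib (SD, n = 4) and 0.0307 ± 0.0039 in MNA without replicate 2 (n = 3). DMSO replicate 1, whose H2-Eb1 level came from 28 reads, was low at 0.0198 while the other 3 were at 0.0441 to 0.0458. Cd74 to H2-Ab1 was 26.03 ± 4.43 in DMSO, 28.9 ± 2.4 with olaparib and 29.97 ± 5.19 in MNA without replicate 2, with overlapping ranges in the 3 groups. H2-Ab1 to Ciita, a target to its activator, was 49.2 ± 16.3 in DMSO with a range of 33.9 to 72.1, 34.7 ± 7.2 with olaparib and 25.8 ± 2.4 in MNA without replicate 2. The 3 MNA values, 24.2, 24.7 and 28.6, were below all DMSO values but reached into the olaparib range of 26.4 to 42.1, and MNA replicate 2 was at 43.7.

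**Figure D3:**
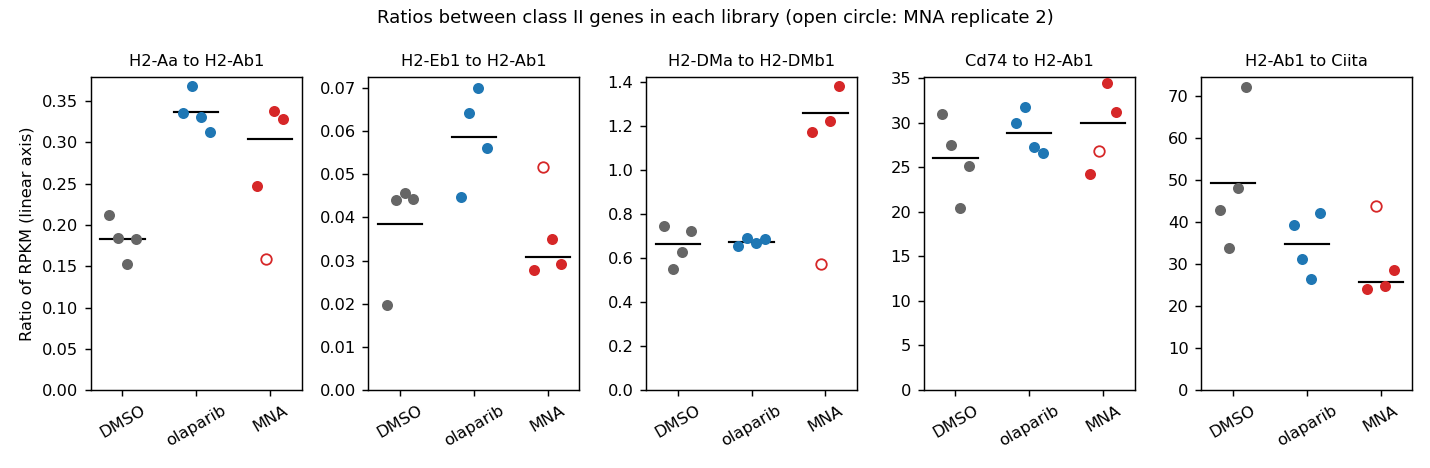
Ratio of RPKM between pairs of genes in each library, on linear axes that start at 0, with DMSO in gray, olaparib in blue and MNA in red. Bars are means of the filled points, and open circles are MNA replicate 2. The H2-Aa to H2-Ab1 ratio of the olaparib libraries (0.313 to 0.368) lies above that of DMSO (0.152 to 0.212), whereas H2-DMa to H2-DMb1 is raised in 3 MNA libraries.

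Likeness across the 12 libraries was measured as the root mean square difference of log2 CPM after each gene was centered on its own mean. Among the 7, H2-Aa and H2-DMa (0.19 log2 units) and Cd74 and H2-Ab1 (0.20) were the closest pairs and H2-Eb1 and Ciita (0.70) the most distant. Ciita was closest to H2-DMa (0.26). Of all other tested genes, the nearest to the mean of the 6 class II genes was H2-DMb2 (0.19), followed by Nabp1, a single-stranded DNA-binding protein (0.25), the guanylate-binding protein Gbp3 (0.27), the class I gene H2-K2 (0.27), the calcium-binding protein S100a11 (0.28), the ectonucleotidase Entpd1 (0.28), the complement gene C1qb (0.29) and Rassf2 (0.29). The nearest to Ciita were Nabp1 (0.31), the vitamin D receptor Vdr (0.33), Rhobtb1 (0.36), Rassf2 (0.37) and the immunoglobulin gene Ighm (0.37). Nabp1, which is on both lists, was at 51.7 CPM in DMSO, 104 CPM with olaparib, 357 CPM in those 3 MNA libraries and 48.6 CPM in MNA replicate 2.

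The rest of the class II pathway was read from 8 lists of genes, 60 of which were counted and 58 tested. With olaparib 11 rose and 8 fell among the 58 in the fit of 12 libraries, where 14.3% of all genes were called higher and 12.8% lower, and 18 rose and 13 fell without MNA replicate 2, where 22.5% of all genes were called higher and 21.2% lower. With MNA 20 rose and 5 fell with all 12 libraries, where 16.3% of all genes were called higher and 12.3% lower, and 28 rose and 16 fell with replicate 2 set apart, where the shares were 27.2% and 26.9%. The counts of each list below are to be read against these shares. Rfx5, Ctsl, Ctss, March1, March8, Cd80 and Cd40, which passed with MNA in the 11 libraries, did not pass with all 12 (adjusted p = 0.052 to 0.14 in edgeR). Below, values for MNA are those of the 11 libraries and values for olaparib those of the 12 libraries, with adjusted p from edgeR's quasi-likelihood test and Benjamini-Hochberg adjustment over all genes tested. MNA replicate 2 was set apart for its levels in these same data, so the adjusted p of the 11 libraries depend on a choice that followed the outcome. In the same test on all 12 libraries, the adjusted p with MNA was 0.014 for Irf1 and 0.016 for H2-DMb2.

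Of the other class II genes, 2 of 3 tested rose with MNA. H2-DMb2 had an adjusted p of 2.2e-08, and H2-Ob, the beta chain of DO, which restrains DM, went from 0.143 ± 0.135 CPM in DMSO (1 to 10 reads a library) to 1.08 ± 0.28 CPM in MNA replicates 1, 3 and 4 (log2 fold change 2.87, SE 0.57, adjusted p = 0.00072). H2-Ob also rose with olaparib, to 0.753 ± 0.343 CPM (log2 fold change 2.37, SE 0.75, adjusted p = 0.036). With so few reads in DMSO, H2-Ob could pass the filter on low counts through the treated libraries. H2-DMb2 did not pass with olaparib in the 12 libraries (adjusted p = 0.083) and did without MNA replicate 2 (adjusted p = 3.6e-05). H2-Oa, its alpha chain, had 1 to 20 reads a library and passed in neither comparison (log2 fold change with MNA 0.92, SE 0.70), and H2-Eb2, with 2 to 20 reads a library, did not pass the filter on low counts.

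The 11 genes of the complex that CIITA docks on gave 4 higher and 4 lower with MNA in the 11 libraries, with a median log2 fold change of 0.061, and 2 and 2 in the 12. With olaparib 1 was higher and 3 were lower in either fit, with a median of -0.082 in the 12 libraries. Rfx5, the RFX subunit that binds the X box, rose from 4.85 ± 0.70 CPM in DMSO to 7.86 ± 0.31 CPM with MNA (log2 fold change 0.70, SE 0.13, adjusted p = 0.00049) and to 7.16 ± 0.60 CPM with olaparib (log2 fold change 0.56, SE 0.19, adjusted p = 0.048). Nfya, a subunit of the Y box factor NF-Y, and Smarca4, the ATPase of a chromatin remodeler, rose with MNA by 0.38 (SE 0.06, adjusted p = 0.00011) and 0.30 (SE 0.05, adjusted p = 3e-04) on the log2 scale and were at 0.08 (SE 0.08) and -0.04 (SE 0.07) with olaparib. The part of these genes in the class II levels was not tested.

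Of 11 regulators known to act upstream of Ciita, 5 rose and 3 fell with MNA in the 11 libraries, beside 27.2% and 26.9% of all genes, and 4 rose and 1 fell in the 12. With olaparib 1 rose and 3 fell in either fit. Irf1, which binds the interferon-responsive promoter of Ciita, was at 53.6 ± 10.6 CPM in DMSO, 50.01 ± 10.17 CPM with olaparib (log2 fold change -0.10, SE 0.40, adjusted p = 0.87) and 266 ± 58 CPM in MNA replicates 1, 3 and 4 (log2 fold change 2.31, SE 0.18, adjusted p = 1.7e-07). Between the treatments Irf1 was lower with olaparib than with MNA by a log2 difference of -2.41 (SE 0.18, adjusted p = 2.9e-07). Socs1, an inhibitor that interferon signaling itself induces, went from 22.8 ± 4.7 to 69.9 ± 8.7 CPM with MNA (log2 fold change 1.62, SE 0.19, adjusted p = 9.3e-06) and had a log2 fold change of 0.22 (SE 0.33) with olaparib. Socs3, the inhibitor best known for signaling through STAT3, fell with both, from 15.9 ± 3.8 CPM to 2.71 ± 0.87 CPM with olaparib (log2 fold change -2.55, SE 0.42, adjusted p = 0.0019) and to 3.57 ± 0.43 CPM with MNA (log2 fold change -2.16, SE 0.23, adjusted p = 4.1e-06).

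Of 11 cytokine receptors and kinases, 8 rose and 1 fell with MNA in the 11 libraries and 6 rose and 1 fell in the 12. With olaparib 8 rose and 0 fell in the 11 libraries, beside 22.5% and 21.2% of all genes, and 5 rose and 0 fell in the 12. Il13ra1, which pairs with the IL-4 receptor chain, rose from 6.06 ± 0.53 to 25.9 ± 1.97 CPM with MNA (log2 fold change 2.10, SE 0.12, adjusted p = 1.7e-08). Csf1r, the receptor for M-CSF, rose from 517 ± 82 to 1734 ± 95 CPM (log2 fold change 1.74, SE 0.11, adjusted p = 2.2e-08). Il10rb, the chain shared by the IL-10 receptor family, fell by 0.77 on the log2 scale with MNA (SE 0.09, adjusted p = 9.2e-06). With olaparib these 3 did not pass in the 12 libraries, with log2 fold changes of 0.49 (SE 0.31), 0.66 (SE 0.31) and -0.21 (SE 0.16), and without MNA replicate 2 Il13ra1 and Csf1r passed (adjusted p = 0.0054 and 0.00014).

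The proteases that cut antigen and the invariant chain in endosomes moved in both directions. Ctsl, cathepsin L, which trims the invariant chain in some cell types, was at 6095 ± 1640 CPM in DMSO and fell to 799 ± 47 CPM in MNA replicates 1, 3 and 4 (log2 fold change -2.93, SE 0.19, adjusted p = 3.8e-08). With all 12 libraries that change did not pass (adjusted p = 0.064). Ctss, cathepsin S, the main protease of that step in B cells and dendritic cells, rose with olaparib from 6172 ± 429 to 7747 ± 877 CPM (log2 fold change 0.33, SE 0.11, adjusted p = 0.047) and fell with MNA (log2 fold change -0.27, SE 0.10, adjusted p = 0.029). Ctsc, cathepsin C, rose with MNA by 1.04 on the log2 scale (SE 0.09, adjusted p = 3.9e-07). Of the 9 genes of this list 3 rose and 3 fell with MNA in the 11 libraries and 2 rose and 0 fell in the 12. With olaparib 3 rose and 2 fell in the 11 libraries, and 1 rose and 0 fell in the 12.

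Among genes that set how long class II stays at the surface, March1, a ubiquitin ligase that removes it, rose with olaparib (log2 fold change 0.69, SE 0.17, adjusted p = 0.013) and with MNA (0.61, SE 0.11, adjusted p = 0.00046). Cd83, which opposes that ligase, rose with MNA from 14.6 ± 1.5 to 44.2 ± 3.2 CPM (log2 fold change 1.60, SE 0.11, adjusted p = 7.7e-08) and was at 0.14 (SE 0.29) on the log2 scale with olaparib, and March8 fell with MNA (-0.24, SE 0.07, adjusted p = 0.0075). Of the 4 genes for CD74 as a receptor of MIF, Cd44, its signaling partner, rose with MNA (log2 fold change 0.61, SE 0.07, adjusted p = 3.4e-06), Cxcr4 fell (-1.04, SE 0.12, adjusted p = 5.9e-06), and Cxcr2, at under 1.1 CPM in all libraries, rose (2.28, SE 0.51, adjusted p = 0.002). Cxcr2 had 6 reads at most in a DMSO library and could pass the filter on low counts through the treated libraries.

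Of 6 costimulatory and checkpoint ligands, 2 rose and 3 fell with MNA in the 11 libraries and 1 rose and 0 fell in the 12, and with olaparib 1 rose and 2 fell in the 11 and 1 rose and 1 fell in the 12. The pair of CD28 ligands differed by treatment: Cd80 was at 10.7 ± 1.5 CPM in DMSO, rose to 17.4 ± 2.7 CPM with olaparib (log2 fold change 0.70, SE 0.17, adjusted p = 0.012) and fell to 7.22 ± 1.99 CPM with MNA (-0.56, SE 0.18, adjusted p = 0.016), while Cd86 was at 3.54 ± 0.96 CPM in DMSO, 3.37 ± 0.79 CPM with olaparib and 9.41 ± 2.39 CPM with MNA, where it rose (log2 fold change 1.42, SE 0.23, adjusted p = 0.00015). Tested directly, olaparib minus MNA was 1.27 (SE 0.18, adjusted p = 7.2e-05) for Cd80 and -1.48 (SE 0.23, adjusted p = 0.00018) for Cd86 on the log2 scale. Cd40 fell with both (olaparib -0.81, SE 0.19, adjusted p = 0.011; MNA -0.71, SE 0.17, adjusted p = 0.0026).

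**Figure D4:**
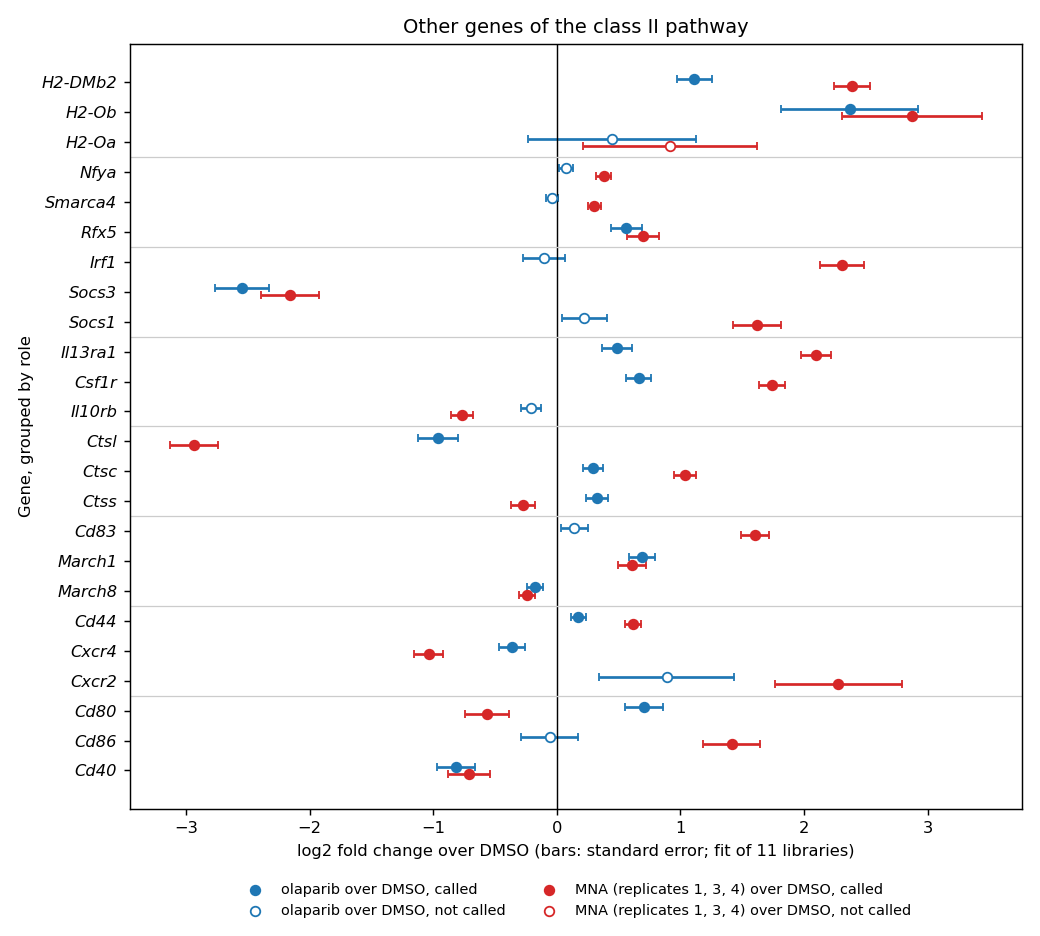
Log2 fold change over DMSO (x axis) with its standard error, from the fit of 11 libraries, for the other class II genes and the named genes of 7 pathway lists, which are set off by gray lines. Olaparib is in blue and MNA replicates 1, 3 and 4 in red, with filled points for genes called at an adjusted p under 0.05. Irf1, Socs1, Cd83 and Cd86 lie to the right for MNA and near 0 for olaparib, and Cd80 lies on opposite sides.

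Class II genes are abundant in B cells and dendritic cells, so the markers of other cells that the cultures could hold are given beside the values above. In these bulk libraries, fewer cells of a type and less RNA per cell cannot be told apart. The 9 B cell markers counted summed to 1.83 to 3.62 CPM in DMSO, 3.99 to 9.38 CPM with olaparib, 3.26 CPM in MNA replicate 2 and 14.9 to 23.8 CPM in the other MNA libraries, with Ighm as the largest part. All 4 of these markers that were tested were called higher with MNA in either fit, and 0 of the 4 with olaparib in the 12 libraries and 1 in the 11. Markers with few reads in DMSO could pass the filter on low counts through the libraries where they were higher. Nothing is therefore read from these counts of calls or from those of the other marker lists below. From DMSO to MNA replicates 1, 3 and 4 the mean of Cd79b went from 0.313 to 2.31 CPM, that of Cd79a from 0.316 to 1.06 CPM, that of Ms4a1 from 0.203 to 0.784 CPM and that of Pax5 from 0.0717 to 0.224 CPM, whereas Ebf1, a transcription factor of B cells, stayed under 0.16 CPM in all libraries. Cr2 averaged 0.0766 CPM in DMSO, 0.196 CPM with olaparib and 0.0525 CPM in MNA replicates 1, 3 and 4. The 12 dendritic cell markers summed to 1580 to 1820 CPM in DMSO, 2437 to 2704 CPM with olaparib, 2052 to 2408 CPM in MNA replicates 1, 3 and 4 and 1674 CPM in MNA replicate 2, mostly from Itgax, which was at 1546 CPM or more in all libraries. Of the 6 tested, 3 were called higher and 1 lower with olaparib in either fit, and 3 higher and 2 lower with MNA in the 11 libraries. Batf3 averaged 16.5 CPM in DMSO, 26.8 CPM with olaparib, 35.5 CPM in MNA replicates 1, 3 and 4 and was at 20.3 CPM in MNA replicate 2, and Zbtb46 averaged 16.4, 17.3 and 12.7 CPM in those 3 groups. Flt3, Clec9a, Cd209a and Siglech stayed under 0.35 CPM, and Ccr7 was at 5.59 to 10.6 CPM in MNA replicates 1, 3 and 4 against 0.0335 to 0.381 CPM in DMSO. The 10 T and NK cell markers summed to 4.50 to 8.44 CPM in DMSO, 13.1 to 24.96 CPM with olaparib, 6.91 CPM in MNA replicate 2 and 33.3 to 49.0 CPM in the other MNA libraries, where Gzma made up most. With olaparib Klrb1c made up most, at a mean of 13.3 CPM against 2.77 CPM in DMSO and 1.47 CPM in MNA replicates 1, 3 and 4. Lck averaged 2.75 CPM in DMSO and 1.51 CPM with olaparib. Of the 5 tested, 2 were called higher and 1 lower with olaparib in the 12 libraries. With MNA 3 were higher and 1 lower in either fit. The 10 neutrophil markers summed to 69.2 CPM in MNA replicate 4 and 10.9 CPM in DMSO replicate 1 against 1.38 to 10.6 CPM in the other libraries. In the 11 libraries 5 of the 5 tested were called higher with MNA, beside 27.2% of all genes, and 4 lower with olaparib than with MNA. In the 12 libraries 1 of the 4 tested was called higher with MNA and 2 lower with olaparib than with MNA. The 8 mast cell and basophil markers summed to 5.36 to 10.1 CPM in all groups. The B cell and the T and NK cell sums were thus lowest in DMSO and MNA replicate 2, higher with olaparib and highest in MNA replicates 1, 3 and 4. The mean levels of the class II genes had that order too. The T and NK cell sums rested mostly on Klrb1c with olaparib and on Gzma with MNA. Their members did not all follow that order: the mean of Klrb1c was lowest in MNA replicates 1, 3 and 4 and that of Lck lowest with olaparib. The macrophage and dendritic cell sums were also above DMSO with both treatments but highest with olaparib. The part of these other cells in the class II levels was not tested.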

How the data were processed

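The authors sequenced stranded mRNA libraries of 12 cultures and deposited 1 table of whole-number read counts per Ensembl gene and library. Reads were aligned by the authors with STAR 2.5.2b to GRCm38.p5 with an Ensembl annotation, and STAR also counted them per gene. Their differential expression, not used here, was computed with DESeq2 in R 3.6.0, and their processing notes also name mm10. The strand setting of the counting is not given in the sources used here. Symbols, positions and exon lengths were taken from GENCODE M21, and promoter sequences from RefSeq (GRCm38.p6).

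The counts were analysed as deposited in R 4.3.3 with edgeR 4.0.16. Genes were kept by filterByExpr (minimum count 10, minimum total 15), leaving 12849 genes for 12 libraries and 13023 for 11, library sizes were scaled by TMM, and the 3 groups were fitted with glmQLFit and compared with glmQLFTest. Genes with a Benjamini-Hochberg adjusted p under 0.05 were called. Library totals of 21146291 to 31446849 counts set the precision, and intervals or floors would cover counting error only. DESeq2 1.42.0 and the other alternatives are in the closing section. On data simulated for the fit of 12 libraries both tools were tested. Ratios used RPKM from TMM-scaled CPM and exon length.

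The members and all lists were chosen with earlier results of these data known. The named genes are the 7 members, all other class II genes, from each other list the 3 genes of lowest p in any comparison, and the 8 and 5 genes nearest to the class II mean and to Ciita. Whether replicate numbers pair the libraries was checked by the correlation of deviations from the group means over genes, which was 0.227, 0.172, 0.225 and 0.408 between DMSO and olaparib. Between DMSO and MNA it was 0.242, 0.114, -0.0094 and 0.277, and without MNA replicate 2 it was 0.179, 0.138 and 0.328. The main fits used group only, so the standard errors, p-values and calls given as main results are not paired. Replicate numbers served as pairs only in the ratios of olaparib to DMSO within a number. The replicate block was an alternative.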

Additional observations from a re-analysis of the deposited data

Results flagged for a closer look

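In groups of 4 libraries, a library was marked when its gap to the nearest other, as a share of the group's range, was above Dixon's 95% critical value. Of 123 groups looked at 9 were marked, and chance marks about 1 group in 20. MNA replicate 2 was marked for H2-DMa (share 0.835, 13.03 CPM against 139 CPM or more in the other MNA libraries), Cd44 (0.927), Rfx5 (0.849), Csf1r (0.862), Ctsl (0.984) and Socs3 (0.912), that is 6 of the 9. DMSO replicate 1 was marked for its H2-Eb1 to H2-Ab1 ratio (share 0.935) and for the summed neutrophil markers (0.933), and MNA replicate 4 for the summed neutrophil markers (0.865).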

How the results depend on the processing

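Limits: the DMSO libraries hold as few as 28 reads of H2-Eb1 and 1 read of H2-Ob, so small differences of these genes were not detectable at this depth. The labels do not tie replicate numbers to mice. No direction of a log2 fold change of the 7 genes was reversed under any alternative in any of the 5 comparisons. Each of the 126 group means recomputed for the 7 genes under an alternative moved by less than the SD between libraries. Leaving out 1 library of a group cannot move its mean by that much, so stability is not read from this. The MNA mean of Cd74, 6354 ± 3607 CPM (SD, n = 4), was 8125 CPM without replicate 2.

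With olaparib against DMSO the 3475 calls over all genes became 5720 when the 2 groups were fitted alone and 1382 at an adjusted p under 0.01. The members called were 1, 6 and 0 under the same settings, and the pathway genes called 19, 32 and 5, or 11 with no filter on low counts. Leaving out 1 library gave 2127 to 5694 genes, 0 to 6 members and 8 to 31 pathway genes. The highest of each was without MNA replicate 2, and the gene count moved by over 1.5 times also without olaparib replicate 4 (2127) and DMSO replicate 3 (2293). Pathway genes fell by that much without DMSO replicate 2 (8), 3 or 4 (10 each) and olaparib replicate 1 (12), 2 or 3 (10 each) or 4 (9).

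With MNA against DMSO on 12 libraries the 3674 genes, 7 members and 25 pathway genes called became 0, 0 and 0 with the 2 groups alone and also at an adjusted p under 0.01, while in edgeR 4741 and 5757 genes, respectively, had an unadjusted p under 0.05, and DESeq2 called 4449. Leaving out 1 library gave 463 to 7042 genes, 4 to 7 members and 2 to 44 pathway genes, with the most genes and pathway genes without MNA replicate 2. Genes and pathway genes were 848 and 5 without MNA replicate 1, 463 and 2 without 3, 503 and 4 without 4, and 1348 and 7, 1234 and 7, and 1719 and 11 without DMSO replicates 2, 3 and 4.

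With olaparib against MNA on 12 libraries the 2800 genes called became 1808 with the 2 groups alone and 1166 at 0.01, and the 4 members became 0 and 0. The 14 pathway genes became 7 at 0.01. Leaving out 1 library gave 1880 to 5502 genes, 0 to 7 members and 9 to 28 pathway genes. The most came without MNA replicate 2, the members called were 0 without any 1 of the other MNA or of the olaparib libraries and 1, 2, 1 and 1 without DMSO replicates 1 to 4, and the pathway genes 9 without MNA replicate 3.

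The replicate block reduced the members called between olaparib and MNA from 4 to 2 (H2-DMa and Ciita were lost) and moved no other count by over 1.5 times (with olaparib against DMSO it called 3696 genes and 1 member). With MNA replicate 2 set apart no alternative moved a count of calls by over 1.5 times: leaving out 1 library gave 6319 to 7019 genes for MNA against DMSO and 4736 to 5593 for olaparib against MNA. The cause of these shifts was not tested. The share of promoters with the motif pair was 0.152% in the 200 bases before the start alone, where both H2-Eb1 and H2-DMb1 held it, against 0.219% in the whole window, and 2.41% with GNAAC, which was chosen after seeing the data. The 8 genes nearest to the class II mean and the 5 nearest to Ciita were all kept under both other scalings, a check also added after seeing the data.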
